A study of Mus musculus with 3 samples.

Results

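Pmel, Mlana and Gpnmb encode proteins of the melanosome, the organelle in which melanocytes make and store pigment. All TFAP2A peaks were taken whose summit, the base of highest signal in a peak, lay in the body of one of these 3 genes or within 100 kb of it. This gave 12 of the 18528 peaks of replicate 1 and 16 of the 21459 peaks of replicate 2. Every one of the 28 peaks is accounted for. Peaks that overlapped by at least 1 bp between the replicates are called shared, and 11 of the 12 replicate 1 peaks were shared.

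TFAP2A-bound chromatin was precipitated from melan-a cells in 2 independent ChIP-seq experiments (chromatin immunoprecipitation followed by sequencing), and 1 input library of unprecipitated chromatin served the study as its control. Melan-a is a single immortalised mouse melanocyte line derived from normal embryonic skin, and all 3 samples carry the genotype Cdkn2a tm1RDp/tm1RDp. The cells of all 3 samples were grown with 10% serum, 200 nM 12-O-tetradecanoylphorbol 13-acetate (a phorbol ester) and 200 pM cholera toxin in 10% CO2, received no further treatment, and were fixed in 1% formaldehyde for 10 min. The antibody was AP-2alpha (3B5). The replicates show the spread between experiments on this line only. The peak lists hold no expression values, so the melanocyte label could not be checked against marker genes here, and they give no change in expression. In separate experiments on melan-a cells, the study reported by quantitative PCR that knockdown of Tfap2a lowered Pmel expression.

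PMEL is a transmembrane glycoprotein that is cut by proteases and assembles into the amyloid fibrils of the early melanosome, on which melanin is later laid down. MLANA, also known as MART-1, is a small membrane protein of the same organelle that binds PMEL and takes part in its maturation. GPNMB is a glycoprotein related to PMEL that is found in melanosomes and lysosomes. TFAP2A is a transcription factor that binds as a dimer to GC-rich sites of the form GCCNNNGG. MITF, the master regulator of melanocyte genes, binds sites with the core CATGTG and also the E-box CACGTG, which other factors recognise too.

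The sequences at the summits are shown first, so that the position and the letters of the DNA under each peak can be read beside its values. They belong to the peaks in the body or promoter interval of a member gene and to the 3 strongest shared peaks of each window. Each runs 5′ to 3′ on the plus strand of mm9 over the replicate 1 summit and 50 bases to each side, or less where the window would have run more than 30 bases into an annotated UTR. All 3 genes lie on the plus strand. Capitals mark matches to GCCNNNGG on either strand, so that a match on the minus strand reads CCNNNGGC.
Mlana promoter, chr19:29772105-29772205: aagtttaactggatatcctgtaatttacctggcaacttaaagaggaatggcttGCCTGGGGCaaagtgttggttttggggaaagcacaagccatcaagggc
Mlana intron, chr19:29777410-29777510: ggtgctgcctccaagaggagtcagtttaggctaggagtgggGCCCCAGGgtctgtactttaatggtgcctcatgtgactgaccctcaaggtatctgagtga
Gpnmb start, chr6:48986481-48986546: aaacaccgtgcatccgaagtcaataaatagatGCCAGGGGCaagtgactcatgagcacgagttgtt
Gpnmb upstream, chr6:48963165-48963265: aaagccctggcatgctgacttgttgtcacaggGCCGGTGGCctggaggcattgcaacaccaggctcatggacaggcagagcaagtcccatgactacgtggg
2410003K15Rik start, in the Gpnmb window, chr6:49023665-49023765: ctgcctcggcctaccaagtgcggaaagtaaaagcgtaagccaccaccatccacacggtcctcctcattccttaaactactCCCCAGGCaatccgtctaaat
Upstream of Ikzf4, in the Pmel window, chr10:128091038-128091138: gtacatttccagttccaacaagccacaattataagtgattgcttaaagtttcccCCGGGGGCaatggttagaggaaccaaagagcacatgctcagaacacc
Rab5b intron, in the Pmel window, chr10:128132790-128132890: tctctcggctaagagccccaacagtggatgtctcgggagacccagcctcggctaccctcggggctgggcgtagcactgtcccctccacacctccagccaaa
Dnajc14 start, in the Pmel window, chr10:128242647-128242719: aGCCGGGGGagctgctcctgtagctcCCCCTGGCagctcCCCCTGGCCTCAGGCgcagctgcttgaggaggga
Of these 8 sequences, only that of the Rab5b intron holds no match to GCCNNNGG.

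The 3 genes differed in where their shared peaks lay. Mlana had 1 shared peak in its promoter interval, which reaches from 5 kb before a transcription start site (TSS) to 1 kb after it, and 1 in its body. Gpnmb had 1 shared peak at its first base, which counts in both. Pmel had none in either, and its nearest shared summit was 6569 bp from its start. Among all 22367 protein-coding genes, 17.0% had a shared peak in the promoter interval and 20.9% in the gene body. A shared peak within the window of 100 kb is less particular, since 71.7% of genes had one, as did 3 of the 3 members.

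**Figure D1:**
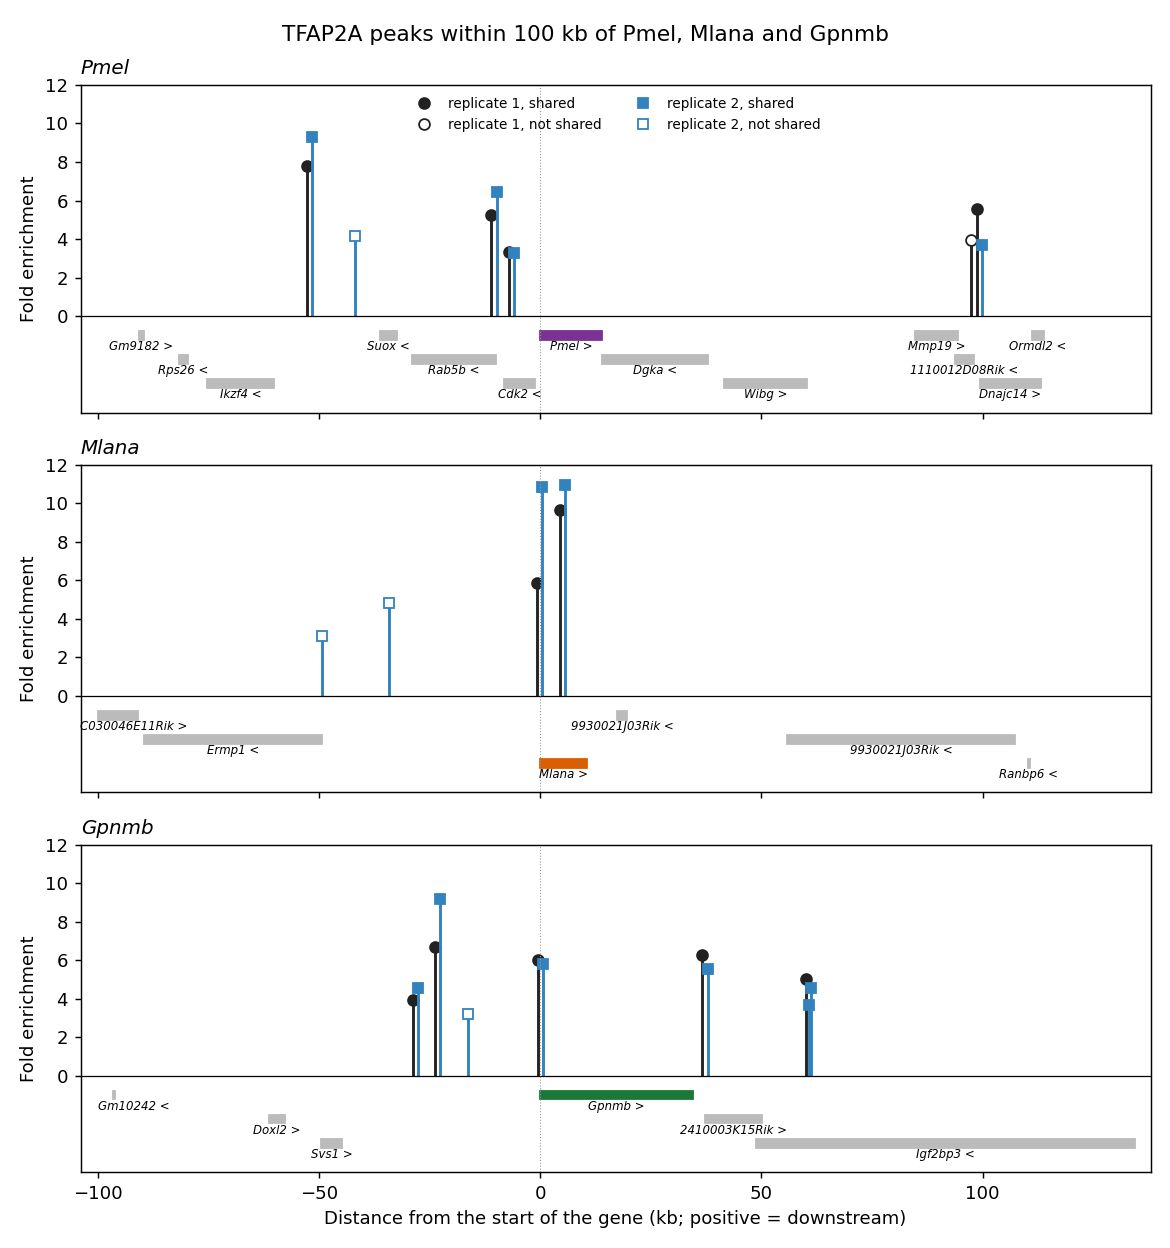
Fold enrichment of every TFAP2A peak (vertical axis) against the distance of its summit from the start of Pmel, Mlana or Gpnmb (horizontal axis, kb), with circles for replicate 1, squares for replicate 2, drawn slightly apart, and open symbols for peaks not shared. Boxes are protein-coding genes with their strand as an arrowhead; Mlana and Gpnmb have peaks at their starts, while Pmel has none over its body.

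Mlana is annotated at chr19:29772411-29782938 (ENSMUSG00000024806.3, 10528 bp, 1 TSS). Its promoter peak spanned chr19:29771894-29772364 in replicate 1, with the summit at -256 bp from the gene start, and the replicate 2 summit lay 10 bp away. Its fold enrichment over background, as the peak caller gave it, was 5.88 in replicate 1 and 10.8 in replicate 2 (8.36 ± 3.50, SD, n = 2). The replicates thus placed this peak at the same bases but not at the same strength. It ranked at or above 54.6% of the replicate 1 list and 86.8% of the replicate 2 list, and its -log10 p was 27.3 and 68.3. The ratio of 1.84 was the highest among the members, and 2.40% of all pairs of peaks had a ratio at or above it.

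The second Mlana peak lay inside an intron of the gene, at chr19:29777192-29777772, with its summit 5049 bp from the start. Its fold enrichment was 9.66 in replicate 1 and 10.9 in replicate 2 (10.3 ± 0.913, SD, n = 2), and its summits were 6 bp apart. This was the highest mean of any shared peak in the 3 windows, and 82.0% of all pairs had a mean at or below it. The intron peak was higher than the promoter peak in each replicate, by little in replicate 2, and their ranges over the replicates overlapped. Both peaks had Mlana as the nearest protein-coding TSS.

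The rest of the Mlana window held little. Replicate 2 alone listed a peak at -34767 bp with a fold enrichment of 4.82 and one at -49978 bp with a fold enrichment of 3.09. The second of these lay 244 bp from the Ermp1 TSS, in an intron of that gene. Neither was shared, and both were weaker than the lower replicate of either shared Mlana peak. Replicate 2 on its own therefore gave 4 peaks for Mlana against 2 shared. Downstream, the next peak in either list began 105342 bp past the end of Mlana.

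Gpnmb is annotated at chr6:48986517-49020928 (ENSMUSG00000029816.7, 34412 bp, 2 TSSs). The peak at its start spanned chr6:48986231-48986764 in replicate 1, and its summit lay 14 bp into the gene, in the 5′ UTR. The fold enrichment was 5.997 in replicate 1 and 5.824 in replicate 2 (5.91 ± 0.122, SD, n = 2), with the summits 7 bp apart. This peak was of middling strength, with 45.7% of all pairs at or below its mean, but only 0.787% of protein-coding genes had a shared summit nearer to a TSS. RefSeq's promoter of Gpnmb, the one promoter sequence given for these 3 genes, matched mm9 once and exactly at chr6:48986267-48986566, inside the peaks of both replicates.

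Upstream of Gpnmb, a stronger peak lay between genes at chr6:48962982-48963414, with its summit at -23302 bp. Its fold enrichment was 6.70 in replicate 1 and 9.18 in replicate 2 (7.94 ± 1.75, SD, n = 2), above both replicates of the peak at the gene start. Gpnmb was its nearest protein-coding TSS, which held for 2 of the 5 shared peaks in this window. A weaker shared peak at -28242 bp, with fold enrichments of 3.92 and 4.54, was nearer to Svs1. Replicate 2 alone added a peak at -16902 bp with a fold enrichment of 3.22.

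The downstream peaks of the Gpnmb window lay at other genes. One spanned chr6:49023467-49023918, with its summit 37198 bp past the Gpnmb start and 79 bp upstream of the TSS of 2410003K15Rik, and had fold enrichments of 6.26 and 5.54 (5.90 ± 0.508, SD, n = 2). Its mean differed from that of the peak at the Gpnmb start by less than the spread between its replicates. The other lay in an intron of Igf2bp3, which encodes an RNA-binding protein, at 60613 bp, with fold enrichments of 5.01 and 4.57. There replicate 1 listed 1 peak of 935 bp where replicate 2 listed 2, the second with a summit at 60097 bp and a fold enrichment of 3.70. The 5 shared replicate 1 peaks of Gpnmb thus corresponded to 6 in replicate 2.

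Pmel is annotated at chr10:128143314-128157294 (ENSMUSG00000025359.8, 13981 bp, 2 TSSs). No peak of either replicate touched it. A stretch of 104229 bp without a peak in either list began 6367 bp upstream of its start and ended 83883 bp past its end. For 0 of the 4 shared peaks in its window was Pmel the nearest protein-coding TSS, and 3 lay in the promoter interval of another gene. Which of the genes in a window such a peak acts on cannot be told apart from its position.

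The strongest Pmel peak lay between genes at chr10:128090861-128091324, with its summit at -52226 bp from Pmel and at -8041 bp from the nearest TSS, that of Ikzf4, which encodes a zinc finger transcription factor. Its fold enrichment was 7.78 in replicate 1 and 9.28 in replicate 2 (8.53 ± 1.06, SD, n = 2), at or above 72.2% of all pairs. The replicate summits were 6 bp apart. Its replicates lay below both replicates of the Mlana intron peak and within the range of the Mlana promoter peak, so its order against the latter is not settled.

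Closer to Pmel, a peak at chr10:128132577-128133040 had its summit at -10474 bp. It lay in an intron of Rab5b, which encodes a small GTPase of early endosomes, 484 bp from the Rab5b TSS. Its fold enrichment was 5.27 in replicate 1 and 6.47 in replicate 2 (5.87 ± 0.849, SD, n = 2), with the summits 1 bp apart. In the RefSeq annotation of a later build the Pmel record, with predicted transcripts, overlaps Cdk2 and Rab5b, whereas GENCODE mouse version 1 ends it short of both. Whether this peak and the next one, in Cdk2, lie outside Pmel and how far they are from a Pmel start therefore hold for the GENCODE annotation only. The same limit applies to the counts of 0 for Pmel in its body, in its promoter interval and by nearest TSS.

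The shared peak nearest to Pmel lay in an intron of Cdk2, a kinase of the cell cycle, at -6569 bp. It is described although it fell outside the rule for peaks given in full, and was chosen after its values were seen. Its fold enrichments of 3.32 and 3.29 (3.30 ± 0.0204, SD, n = 2) were the lowest of the 11 shared pairs and among the lowest of the series, with 5.04% of all pairs at or below. Its summits were 75 bp apart, the widest gap among the members, while the other 10 pairs were within 35 bp. The nearest TSS was that of Rab5b, with the summit at -3421 bp from it.

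The remaining peaks of the Pmel window lay far from the gene. A shared peak with its summit 99383 bp past the Pmel start lay 7 bp from the TSS of Dnajc14, which encodes a J-domain co-chaperone. It had fold enrichments of 5.56 in replicate 1 and 3.69 in replicate 2 (4.62 ± 1.32, SD, n = 2). Its ratio of 0.663 was the lowest among the members, and 2.73% of all pairs had a ratio at or below it. Replicate 1 alone listed a peak 55 bp from the TSS of 1110012D08Rik with a fold enrichment of 3.93. Replicate 2 alone listed one at -42573 bp with a fold enrichment of 4.14.

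Replicate agreement in the 3 windows was close to that of the series. Of the replicate 1 peaks, 11 of 12 were shared (91.7%, exact 95% interval 61.5 to 99.8%), against 87.1% of all replicate 1 peaks. Of the replicate 2 peaks, 12 of 16 were shared (75%, 47.6 to 92.7%), against 76.0% of all. These intervals cover counting error only and are wide at this number of peaks. The 5 unshared member peaks had fold enrichments of 3.09 to 4.82, and the median of all unshared peaks was 3.99 in replicate 1 and 4.60 in replicate 2. Among peaks of like rank, within 5 percentiles of each of the 5, between 56.2% and 76.3% were shared.

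Pairs of peaks in which each was the other's largest overlap numbered 16069 in the series and 11 in the windows of Pmel, Mlana and Gpnmb. Replicate 2 was higher in 6 of the 11, against 57.8% of all pairs. Replicate 2 divided by replicate 1 had a median of 1.13 over the members and 1.05 over all pairs, of which the 5th to 95th percentiles were 0.713 and 1.65. Only the Mlana promoter peak and the Dnajc14 peak lay outside those bounds, in opposite directions. The other 9 were within 1.5-fold, as were 88.1% of all pairs. The median distance between paired summits was 10 bp over the members and 24 bp over all pairs.

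**Figure D2:**
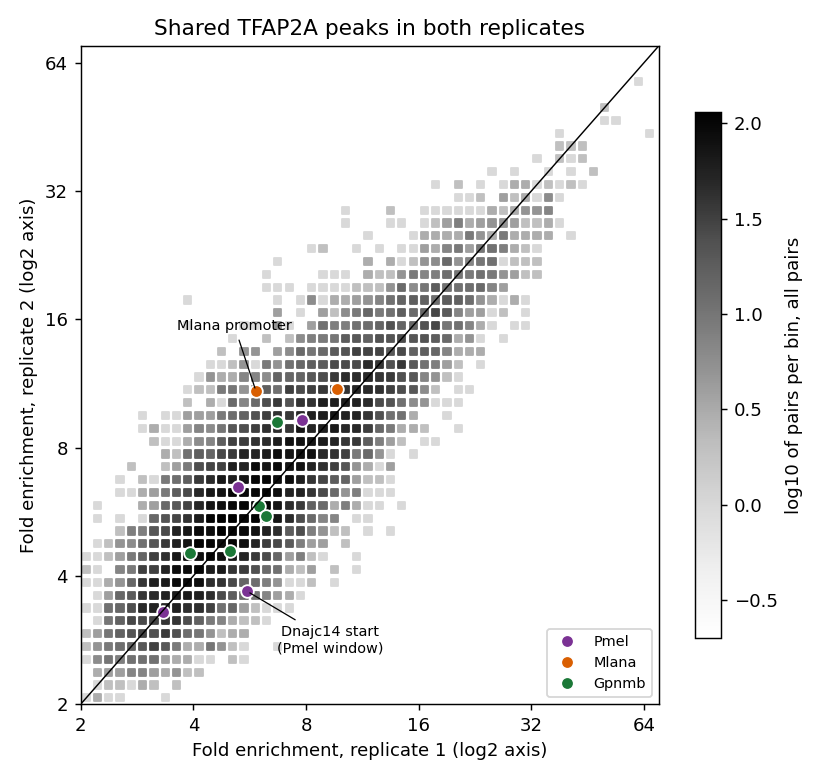
Fold enrichment in replicate 1 (horizontal) and replicate 2 (vertical) on log2 axes, with all 16069 pairs as grey bins and the 11 pairs in the windows of Pmel, Mlana and Gpnmb as coloured points. Among these 11 pairs the Mlana promoter peak lies furthest above the line of equality and the Dnajc14 peak furthest below it.

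By mean fold enrichment the shared peaks of the 3 genes were spread from the Cdk2 intron peak, with 5.04% of all pairs at or below it, to the Mlana intron peak, with 82.0%. The highest values of the series were 64.6 in replicate 1 and 56.4 in replicate 2. The leading peak of each window had a mean of 10.3 for Mlana, 8.53 for Pmel and 7.94 for Gpnmb. The Pmel leader was higher than the Gpnmb leader in each replicate, but their ranges overlapped and their means differed by less than the spread between replicates. The ranges of the Mlana and Pmel leaders did not overlap. Over all protein-coding genes with a shared peak in their window the median of the strongest mean was 8.67. The strongest peak was at or below the Mlana value in 64.2% of those genes, at or below the Pmel value in 48.5% and at or below the Gpnmb value in 41.9%. None of the 3 genes had a leading peak of unusual strength.

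Promoter pairs of the series had a lower median enrichment than the others, so the peaks were also placed within their own class. Of the 11 member pairs, 6 lay in the promoter interval of some protein-coding gene, a class of 4126 pairs with a median fold enrichment of 5.15. The Mlana promoter peak was at or above 83.2% of that class and the Gpnmb start peak at or above 62.3%. The other 4 of this class lay at neighbouring genes, with 62.1% for the peak at 2410003K15Rik, 61.7% for Rab5b, 40.2% for Dnajc14 and 10.2% for the Cdk2 intron. The other 5 lay outside promoters, a class of 11908 pairs with a median of 6.64. There the Mlana intron peak was at or above 78.8%, the Pmel peak upstream of Ikzf4 at or above 68.1%, the upstream Gpnmb peak at or above 63.3%, the Igf2bp3 intron peak at or above 21.8% and the Gpnmb peak at -28242 bp at or above 13.7%.

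The number of shared peaks per window was 4 for Pmel, 2 for Mlana and 5 for Gpnmb, and the median over all genes was 2. Per 100 kb of window this came to 1.87, 0.950 and 2.13, against a median of 0.816. At least as many shared peaks were found for 28.4% of genes in the case of Pmel, 54.3% for Mlana and 19.4% for Gpnmb. By distance the order was different, since 22.4% of genes had a shared summit nearer to a TSS than Pmel, 7.36% nearer than Mlana and 0.787% nearer than Gpnmb. Thus Mlana had as many shared peaks as the median gene, with one just upstream of its start, whereas Pmel had more shared peaks and, in the GENCODE annotation, none in its promoter interval.

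**Figure D3:**
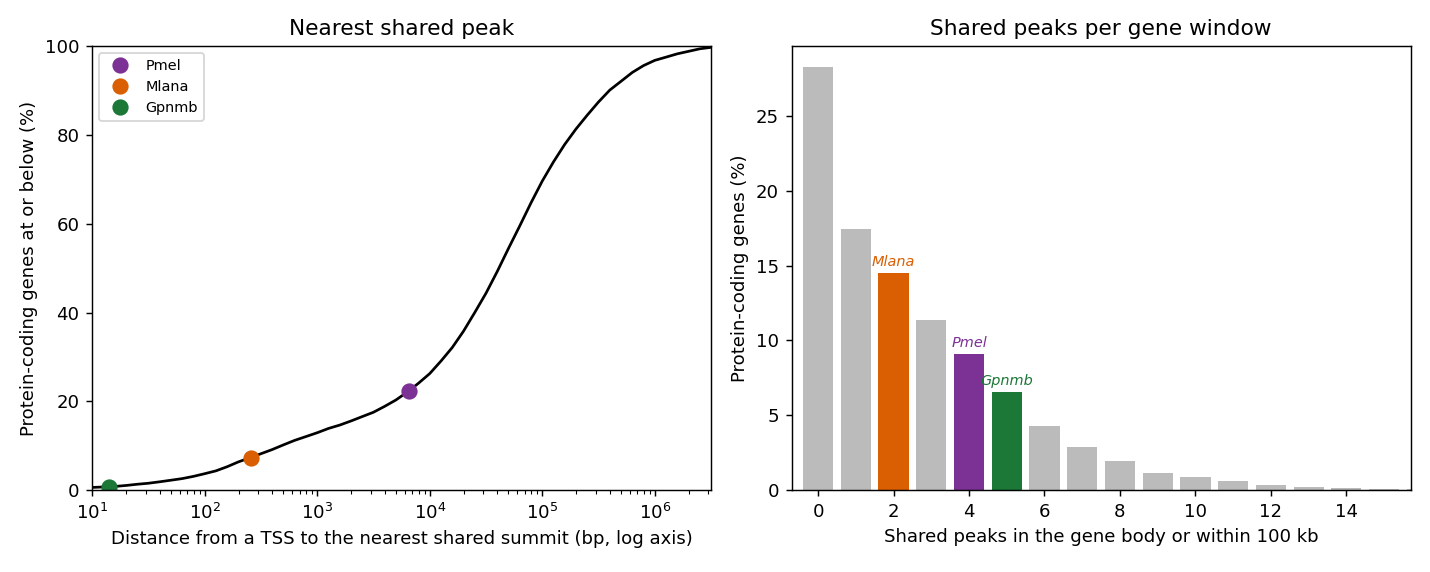
Left, share of protein-coding genes (vertical, %) whose nearest shared summit lies within a given distance of a TSS (horizontal, bp, log axis), with Pmel at 6569 bp, Mlana at 256 bp and Gpnmb at 14 bp as points. Right, share of genes (%) by the number of shared peaks in the gene body or within 100 kb, with the bars that hold Mlana (2), Pmel (4) and Gpnmb (5) coloured.

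The windows also hold other genes, 12 for Pmel, 5 for Mlana and 5 for Gpnmb. Of these 22, 4 had a shared peak in their own promoter interval, a share close to the 17.0% of all protein-coding genes. These were Rab5b, Dnajc14 and 1110012D08Rik in the Pmel window and 2410003K15Rik in the Gpnmb window. The last 2 appear in RefSeq as Tmem198b and Malsu1. With only the peaks whose nearest TSS was that of the member, the shared counts became 0 for Pmel, 2 for Mlana and 2 for Gpnmb.

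Within 50 bp of the summit, 9 of the 11 shared member peaks had a match to GCCNNNGG on either strand. Among all 16099 shared peaks on assembled chromosomes the share was 57.1%, and in equally long flanks centred 400 bp away it was 15.3%. The longer palindrome GCCNNNGGC, which holds GCCNNNGG on both strands at once, was found in 5 of 11 member peaks and in 19.1% of all. It read GCCTGGGGC in the Mlana promoter peak, GCCAGGGGC at the Gpnmb start and GCCGGTGGC in the upstream Gpnmb peak. In the Dnajc14 peak it read GCCTCAGGC, 1 bp from the replicate 1 summit and 34 bp from the replicate 2 summit. Over whole replicate 1 peaks, a search added after the data were seen, 11 of 11 had a match to GCCNNNGG, as did 81.6% of all shared peaks.

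At the replicate 1 summits, 2 of the 4 shared Pmel peaks had a match, as did 2 of 2 for Mlana and 5 of 5 for Gpnmb. At the replicate 2 summits, or within 100 bp of the replicate 1 summits, the Pmel count was 3 of 4, and over the whole peaks it was 4 of 4. The Rab5b intron peak had no match within 50 bp of the summit of either replicate or within 100 bp of the replicate 1 summit. The Cdk2 intron peak had none within 50 bp of its replicate 1 summit and 2 at its replicate 2 summit, which lay 75 bp away. The Dnajc14 peak had the most, with 5 matches that partly overlap. Its sequence was also rich in G and C, at 69.3% of the bases within 50 bp of the summit, and that of the Rab5b peak at 64.4%, against a median of 51.5% over all shared peaks. A string of letters is not by itself a bound site, and its absence from a window says nothing of binding.

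Each string of another factor was found in at most 2 of the 11 shared member peaks. The MITF core CATGTG was found in 2 of the 11 peaks, the Mlana intron peak and the Pmel peak upstream of Ikzf4, and in 7.01% of all shared peaks against 7.18% of their flanks. In the Mlana intron it was part of the M-box TCATGTG, centred 22 bp from the replicate 1 summit and 28 bp from the replicate 2 summit. This string was held by 2.01% of all shared peaks and 1.72% of their flanks. At the replicate 1 summits the E-box CACGTG and the SOX strings ACAAAGG and ACAATGG were found in 0 of the 11. Their shares were 1.78% and 5.21% of all shared peaks, against 1.42% and 3.29% of flanks. The Cdk2 intron peak had ACAAAGG at -23 bp from its replicate 2 summit. The TEAD string GGAATG was found in 2 of the 11, the Mlana promoter peak and the peak at 2410003K15Rik. It was found in 10.5% of all shared peaks and in 5.54% of flanks.

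At the start of Gpnmb the string of AP-1, a dimer of the FOS and JUN families, was found beside the TFAP2 palindrome. TGACTCA was centred 3 bp before the replicate 1 summit and GCCAGGGGC 14 bp before it, at chr6:48986513-48986521, which spans the annotated TSS. TGAGTCA or TGACTCA was found in 1 of the 11 member peaks, in 6.36% of all shared peaks and in 1.75% of flanks. Of 32851 RefSeq promoters of 300 bases, 54.8% held GCCNNNGG, 16.6% GCCNNNGGC and 5.20% an AP-1 string. The Gpnmb promoter held all 3 and no MITF core, E-box, SOX or TEAD string.

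**Figure D4:**
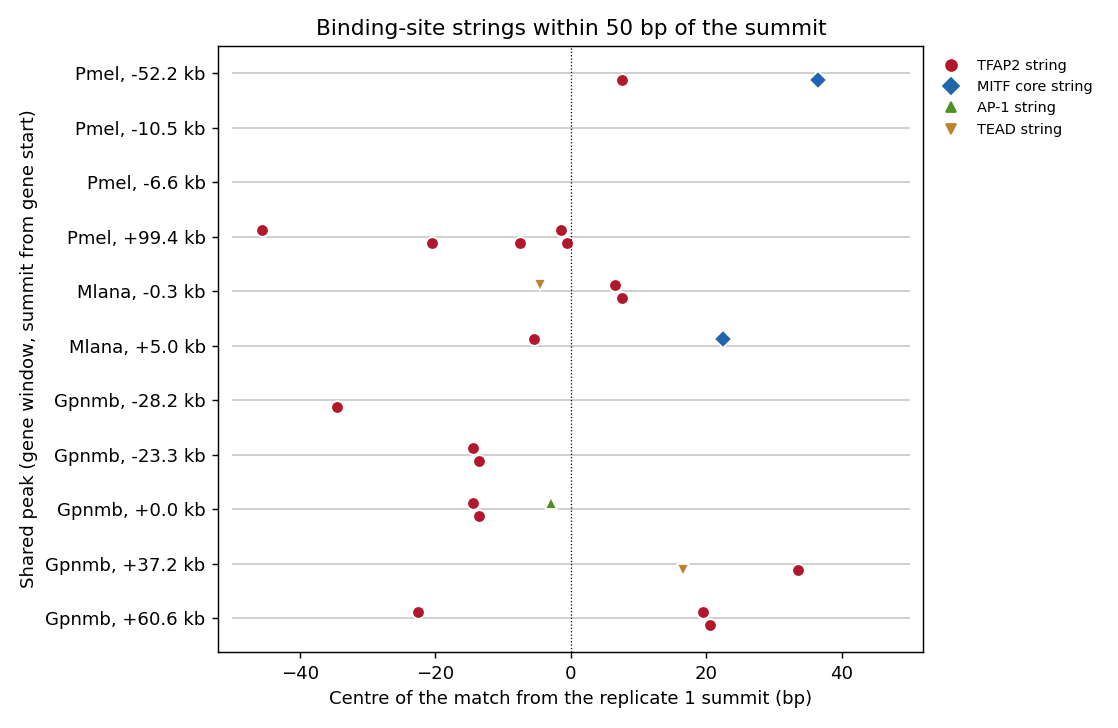
Position of TFAP2 (GCCNNNGG), MITF core, AP-1 and TEAD strings relative to the replicate 1 summit (horizontal, bp) in the 11 shared peaks (rows, named by gene window and distance from the gene start), with plus-strand matches drawn above the line and minus-strand matches below. TFAP2 strings are found in 9 of the 11 rows, and the rows without one are the Pmel peaks in the Rab5b and Cdk2 introns.

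Other genes whose products act on these proteins were taken as a fixed list. It held Cd63, Apoe, Bace2, Furin, Adam10 and Adam17, which sort, load or cut PMEL, and Gpr143, a melanosomal receptor that binds MLANA. A shared peak lay in the promoter interval of 2 of the 7, against 17.0% of all genes. For Furin, a proprotein convertase, the stronger of its promoter peaks had fold enrichments of 7.90 and 7.27, and for Adam10, a membrane metalloprotease, the peak had 7.15 and 7.55. In the gene body 2 of the 7 had a shared peak, against 20.9% of all genes, and within 100 kb 6 of the 7 did, against 71.7% of all genes. The 7 windows held 0 to 10 shared peaks with a median of 5, and the median over all genes was 2. The exception was Bace2, whose nearest shared summit was 401755 bp away. By the replicate 2 list alone, 4 of the 7 had a promoter peak, against 20.9% of all genes by that list and interval, Apoe and Gpr143 being the additions.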

How the data were processed

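TFAP2A ChIP-seq was measured in 2 replicates of melan-a cells, each with its own deposited peak list. The input library was not analysed here. The submitters' processing notes name BWA, MACS 1.4.2 and mm9, without their roles. Lists of this format with q-values are usual for later versions of MACS, so which version made the fold enrichments and q-values is not certain. The read filters are not given in those sources or in the study's methods used here. The authors' lists hold a summit position, a ratio (fold enrichment over background), -log10 values of p and q, and a score for each peak. The deposited score was 10 times the -log10 p without its decimals in all 39987 peaks and was not used. The lowest deposited -log10 q was 2.64 in both lists. The read depth behind each list is unknown, so the lists' lengths may differ with depth, and peaks below the threshold are not listed.

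Coordinates were used as given, on mm9, where 0 peaks ran past a chromosome end. Genes came from GENCODE mouse version 1. Distances run from the first base of the gene, and the nearest TSS was taken over all transcripts of protein-coding genes. Shared peaks overlapped by at least 1 bp, the study's own rule, and were counted as replicate 1 peaks. The promoter interval is the proximal part of the study's association rule, without its distal extension, and was applied here at every annotated TSS of a gene. Strings were searched in the mm9 sequence. RefSeq promoters came from a set of GRCm38.p6 sequences that held Gpnmb but neither Pmel nor Mlana. Later symbols came from the RefSeq gene table of the same build. Means are given with the SD over 2 replicates. The percentages of member peaks that were shared have exact 95% intervals by Clopper and Pearson, which cover counting error only.

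No test between groups was run, since the files hold 2 replicates of 1 condition; values are set beside those of all genes or peaks. All members are named. Peaks given in full were those in a member's body or promoter interval and the 3 shared peaks of highest mean in each window, and sequences are printed for these only. The members and lists were chosen with earlier results of these data known. Alternatives were a -log10 q of at least 5, other overlap, window, promoter, site and assignment rules, and each replicate alone. Scripts ran in Python 3.11.15 with pandas 2.3.3, numpy 2.4.6, scipy 1.17.1 and matplotlib 3.10.9 and were tested on simulated data.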

Additional observations from a re-analysis of the deposited data

How the results depend on the processing

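Of 72 values under alternative settings of 15 results, 57 stayed within the limits set for an unchanged result and 15 moved. The count of shared peaks depended on the window. For Pmel it was 4 at 100 kb, 2 at 50 kb, 1 at 10 kb and 0 in the gene body, and 0 with only the peaks nearest to its TSS. For Mlana it was 2, with 1 in the gene body. For Gpnmb it was 5, with 2 at 10 kb, 1 in the gene body and 2 with only the peaks nearest to its TSS. Leaving out each replicate gave 2 to 4 peaks for Mlana, the higher count without replicate 1. Of the list of 7 genes, 2 to 4 had a promoter peak, again with 4 without replicate 1. Within the limits, Gpnmb had 7 peaks without replicate 1 and 5 without replicate 2, and Pmel had 5 in each case. With GCCNNNGGC in place of GCCNNNGG, peaks with a site at the summit went from 9 to 5 in all, from 2 to 1 for Pmel, from 2 to 1 for Mlana and from 5 to 3 for Gpnmb. Searched over the whole peak, a setting chosen after seeing the data, Pmel had 4. The lowest -log10 q of any member peak was 6.03, so a cut at 5 could remove none of them. Other overlap rules and counting by replicate 2 moved no count of shared peaks past those limits. Within them, Gpnmb had 4 with a reciprocal overlap of at least 50% and 6 when counted as replicate 2 peaks. No paired analysis was possible because the peak lists analysed here are of 1 condition. Depth is unknown, so a peak in 1 list only may be a weak region below the threshold of the other list, which was not tested.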
